A study of Mus musculus with 105 samples.

Results

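Peroxisome proliferator-activated receptor alpha (PPAR alpha, gene Ppara) and 8 genes that it is known to drive or that carry fatty acid oxidation were followed through chemical liver carcinogenesis in mice that had lost 1 of 4 signalling genes. The members were chosen by gene symbol. All 9 of the listed genes, Ppara, Cyp4a10, Cyp4a14, Acaa1b, Vnn1, Ehhadh, Cpt1a, Cpt2 and Acadvl, were present among the 12966 genes of the deposited table, and none was at 0 reads in any of the 105 libraries.

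All mice had received diethylnitrosamine (DEN), a carcinogen that is activated in hepatocytes and produces liver tumours, so the wild-type (WT) groups were DEN-treated too. Sequencing group 1 held 60 libraries from mice labelled Ikk KO (IKO), Shp2 KO (SKO) and WT, with 4 libraries per group, and sequencing group 2 held 45 libraries from mice labelled β-catenin KO (BKO), cMet KO (MKO) and a second set of WT, with 3 per group. Liver came from mice of 1, 3, 5 and 8 months, and at the last age tumour and non-tumour tissue were separate libraries. The study's title places the losses in hepatocytes, and the other cells of the liver are part of each bulk sample. Strain, sex, the Cre driver and the Ikk subunit are not stated in the labels used here, and neither is whether age runs from birth or from DEN. Libraries of a group are numbered as biological replicates.

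PPAR alpha is a nuclear receptor that pairs with the retinoid X receptor and, when fatty acids or fibrate drugs bind it, switches on genes for their breakdown. In liver it is best known for the response to fasting, when fatty acids from adipose tissue are burned and turned into ketone bodies. Long chains are hydroxylated at their far end by microsomal Cyp4a enzymes, shortened in peroxisomes (Ehhadh, Acaa1b), or carried into mitochondria by the carnitine palmitoyltransferases (Cpt1a at the outer membrane, Cpt2 at the inner membrane) and oxidised from Acadvl onwards. Vnn1 is a pantetheinase and a commonly used PPAR alpha target.

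The receptor pair binds direct repeats of the hexamer AGGTCA with 1 base between them, so the start-site regions of the members were searched for such a repeat (12 fixed letters). RefSeq promoter sequences of build GRCm38.p6, running from 250 bases before to 50 bases after the start site, were found for 6 of the 9 members. The promoters of Cyp4a10, Cyp4a14 and Vnn1 were not analysed here. On either strand the best match to the repeat had 4 mismatches in Acaa1b, Acadvl, Ppara, Ehhadh and Cpt1a and 5 in Cpt2. A match with at most 4 mismatches occurred in 79.8% of 32851 promoters, and a single AGGTCA or its reverse complement in 16.3%. Of the 6 members, 2 held the hexamer, Acadvl on chromosome 11 and Cpt1a on chromosome 19, and their sequence around it is shown because these are the 2 members that rose in IKO liver. The Acadvl stretch is chr11:70015450-70015575 on the minus strand, with the hexamer starting 87 bases before the start site. The Cpt1a stretch is chr19:3323147-3323272 on the plus strand, with the hexamer in reverse orientation, starting 94 bases before the start site. That start site lies inside the gene as annotated, which begins at 3322326, and the Ppara promoter likewise begins at 85735526, downstream of the gene's start at 85734910. Capitals mark the hexamer, and each sequence is written 5′ to 3′ along its gene.
Acadvl: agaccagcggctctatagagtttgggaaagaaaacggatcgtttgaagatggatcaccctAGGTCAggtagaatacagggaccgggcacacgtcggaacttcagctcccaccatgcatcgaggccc
Cpt1a: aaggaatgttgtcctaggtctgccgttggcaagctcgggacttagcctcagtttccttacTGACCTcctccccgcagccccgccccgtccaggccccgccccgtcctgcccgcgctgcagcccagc
A match of letters is a description and does not show a binding site.

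A library of the first sequencing group held 4676444 to 10863046 reads on these genes (median 7170990), and 1 of the second held 6650086 to 20231121 (median 11959370). Levels below are reads divided by the authors' size factor of the library (normalised reads), which allow a gene to be compared between libraries and not genes with each other. Differences and standard errors (SE) are on the deposited log2 scale, which compresses low values. A gene was called, or is said to have risen or fallen, where the Benjamini-Hochberg adjusted p of limma over all 12966 genes was below 0.05. Statements that groups stood apart or did not overlap describe the libraries' values. The share of all genes whose groups do so was not counted. The deleted gene gave a mixed check of the labels. Ptpn11, which encodes Shp2, was at 107.1 to 196.6 normalised reads in 19 of 20 SKO libraries and at 291.8 or more in the WT libraries of that sequencing group. The remaining library, labelled SKO replicate 2 at 3 months, had 375.1 so the SKO results over all stages are given with and without it. Ikbkb, 1 of the Ikk genes, had group means of 205.5 to 352.9 in IKO and 340.4 to 359 in WT, and Met 134.3 to 223.1 in MKO and 200.4 to 261.8 in WT. Ctnnb1, which encodes β-catenin, had group means of 110.8 to 172.3 in BKO and 103.6 to 182 in WT, so this gene's reads did not separate BKO from WT. Whether the counted reads fall in the deleted part of each gene is not stated in the labels used here.

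Cyp4a10 (chromosome 4, 115518287 to 115533649, GRCm38) and Cyp4a14 (chromosome 4, 115486200 to 115496158) lie next to each other. Reads from near-identical copies could be shared. Of the 36-base stretches of the Cyp4a10 transcript, 33.4% also occur in Cyp4a32 and 22.1% in Cyp4a31, and 42.6% of those of Acaa1b (chromosome 9, 119148043 to 119157093) occur in Acaa1a. Over the last 500 bases the shares were 0% and 10.1% for Cyp4a10 and 43.7% for Acaa1b. Values of Cyp4a10 and Acaa1b are therefore uncertain to the extent that counting split such reads. No other member shared over 1% with another gene.

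**Figure D1:**
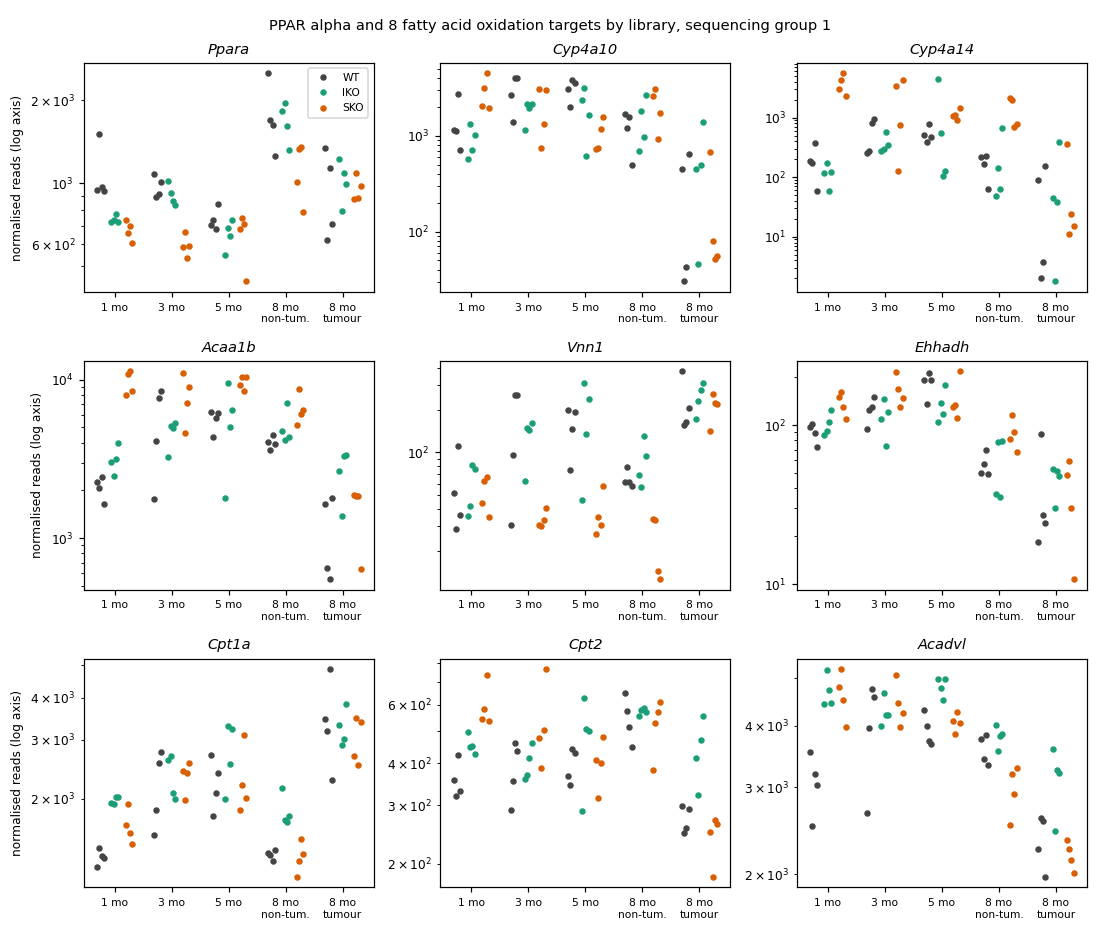
Normalised reads (log axis) of the 9 members in each library of sequencing group 1, by stage. Each point is 1 library, with 4 per group in WT, IKO and SKO. Cyp4a14 in SKO at 1 month, from 2316 to 5495, lies above all WT libraries of that age, from 58.09 to 375.2.

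**Figure D2:**
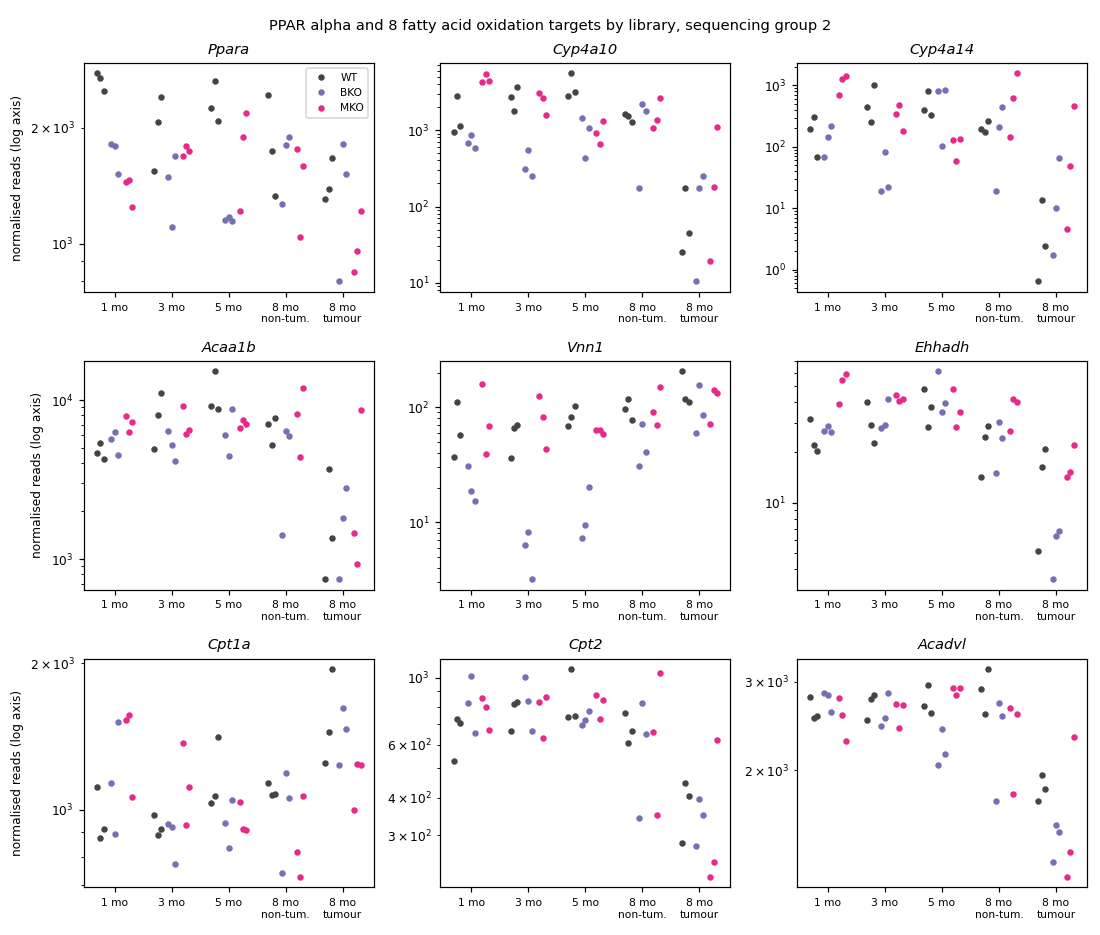
Normalised reads (log axis) of the 9 members in each library of sequencing group 2, by stage. Each point is 1 library, with 3 per group in WT, BKO and MKO. Vnn1 in BKO at 3 months, from 3.199 to 8.3, lies below the WT libraries of that age, from 36.15 to 69.46.

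In SKO non-tumour liver the receptor's mRNA fell while several of its targets rose. In the mean of the 4 non-tumour stages, each counted equally, 5 of the 9 members were called against 22.9% of all genes. The 3 higher members compare with 12% of genes called higher and the 2 lower members with 10.9% called lower. Ppara fell, with a difference from WT of -0.55 (SE 0.0904, adjusted p = 6.78e-06). Cyp4a14, a fatty acid ω-hydroxylase that PPAR alpha ligands induce, rose by 2.31 (SE 0.423, adjusted p = 3.8e-05), Acaa1b, the last enzyme of the peroxisomal spiral, by 1.09 (SE 0.186, adjusted p = 1.12e-05) and Cpt2 by 0.27 (SE 0.0856, adjusted p = 0.0175). Vnn1 went the other way and fell by 0.96 (SE 0.18, adjusted p = 5.14e-05). The members' median difference was 0.14, against 0.01 over all genes.

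The values by library show the split among the targets. Where single ages are tested, 16.1% of all genes were called in SKO at 1 month, 5.19% at 3 months and 5.03% in 8-month non-tumour liver. At 1 month Cyp4a14 stood at 3068, 4313, 5495 and 2316 normalised reads in SKO and at 184.2, 174.5, 375.2 and 58.09 in WT. At 8 months in non-tumour liver it was at 2157, 1992, 685.8 and 777.5 in SKO and at 221.5, 163.2, 230.5 and 63.01 in WT. Groups did not overlap at either age, nor at 5 months, when SKO had 1055, 1096, 914.2 and 1455 and WT 519.1, 388.6, 781.6 and 473.9. Tested alone, Cyp4a14 rose at 1 month (4.22, adjusted p = 0.000345) and in 8-month non-tumour liver (2.80, adjusted p = 0.0395). It was not called at 3 or 5 months. The 8-month call was lost without SKO replicate 1 or 2 or any single WT library (adjusted p = 0.0609 to 0.136). At 3 months the SKO values were 3411, 125, 762.1 and 4336, and the value of 125 belongs to replicate 2, the library with Ptpn11 at the WT level. WT at that age had 249.9, 273.6, 798.9 and 941.2. Without replicate 2 the difference over the 4 stages was 2.56 (adjusted p = 2.12e-06), and the other 4 calls also held.

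Acaa1b at 1 month was at 8012, 10910, 11340 and 8505 in SKO against 2249, 2068, 2415 and 1632 in WT, and the groups did not overlap. By 8 months in non-tumour liver SKO had 5175, 8711, 6080 and 6451 and WT 4074, 3616, 4482 and 3903, still apart, with a difference of 0.69 that did not pass (adjusted p = 0.313). Ppara at 3 months was at 587.3, 666.4, 534.3 and 590.1 in SKO and at 1077, 892.1, 910.4 and 1014 in WT. Its 1-month values were 734.8, 657.8, 698.3 and 607.6 in SKO and 947.7, 1514, 964.5 and 939.2 in WT. All SKO libraries lay below all WT libraries at both ages, and Ppara also fell when these ages were tested alone (adjusted p = 0.0175 at 3 months and 0.00997 at 1 month). The call at 1 month was lost without WT replicate 2 (-0.48, adjusted p = 0.0919), and the call at 3 months without SKO replicate 3 (0.0651), SKO replicate 4 (0.0622) or WT replicate 1 (0.0537), or with only the groups compared (0.0621). In 8-month non-tumour liver the difference was -0.64 (adjusted p = 0.0267). That call was lost with quantile normalization (0.0876), with only the groups compared (0.137) and without SKO replicate 1 or 4 or WT replicate 1 or 3 (0.0532 to 0.21).

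Vnn1 at 5 months was at 26.22, 35.04, 30.79 and 58.04 in SKO and at 198.6, 74.57, 146.1 and 194.3 in WT. In 8-month non-tumour liver it was at 33.69, 33.22, 14.31 and 12.61 in SKO and at 61.75, 79.16, 61.63 and 57.65 in WT. SKO was below WT without overlap at both of these ages, and the difference passed at 5 months (adjusted p = 0.00647, with 6.02% of genes called) and not at 8 months (0.103). At 3 months the groups overlapped, with 30.64, 30.23, 33.24 and 40.04 in SKO and 30.39, 95.42, 254 and 254.6 in WT. The call at that age (-1.38, adjusted p = 0.0159) was lost with only the groups compared (0.205) and without WT replicate 3 (0.0888) or 4 (0.0868). At 1 month the difference was -0.01 (adjusted p = 0.995).

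The neighbouring Cyp4a10 was not called over the stages or at any single stage. Its difference over the 4 stages was -0.10 (SE 0.332, adjusted p = 0.876), and without the doubted library 0.00 (adjusted p = 0.997). The sign of its difference varied, with 1.12 at 1 month (adjusted p = 0.268), -0.68 at 3 months (0.642), -1.56 at 5 months (0.158) and 0.73 in 8-month non-tumour liver (0.611). At 1 month it was at 2054, 3195, 4491 and 1978 in SKO and at 1142, 1121, 2745 and 710.2 in WT, overlapping. At 5 months it was at 735.1, 747.6, 1173 and 1584 in SKO and at 3057, 1985, 3806 and 3558 in WT, and the order of the groups was the reverse of that for Cyp4a14 in the same livers. The 2 genes were set against each other as the log2 ratio of Cyp4a14 to Cyp4a10 in each library (1 added to both). In WT non-tumour liver of sequencing group 1 its stage means ran from -2.94 to -2.52. SKO means were 0.38 at 1 month (SD 0.157), -0.67 at 3 months (SD 1.39), 0.15 at 5 months (SD 0.459) and -0.62 in 8-month non-tumour liver (SD 0.379), each n = 4.

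This ratio was tested only after its values had been seen. First, 20 two-sided exact permutation tests compared each knockout with WT at each stage. SKO gave an exact p of 0.0286 at 1 month, 5 months and in 8-month non-tumour liver, the smallest that 4 against 4 allows, and none of the 20 passed after adjustment (adjusted p = 0.19 for these). Groups of 3 cannot go below 0.1. A second form, added once that result was known, made 1 two-sided permutation test per knockout with labels shuffled within the 4 non-tumour stages. There SKO was higher by 2.54 (16 libraries against 16, permutation p = 1e-05, the smallest that the shuffles can give, adjusted over 4 tests 4e-05). Without the doubted library the difference was 2.69 (permutation p = 1e-05). The other differences were 0.08 in IKO (adjusted p = 0.833), 0.42 in BKO and 0.40 in MKO (adjusted permutation p = 0.331 for both). At single stages, tumours included, BKO ran from -0.93 at 3 months to 1.86 at 5 months. MKO ran from -0.46 at 3 months to 2.13 in tumours. Both highest values had an exact permutation p of 0.1 (adjusted p = 0.327). SKO tumours were higher by 1.12 (adjusted p = 0.327).

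**Figure D3:**
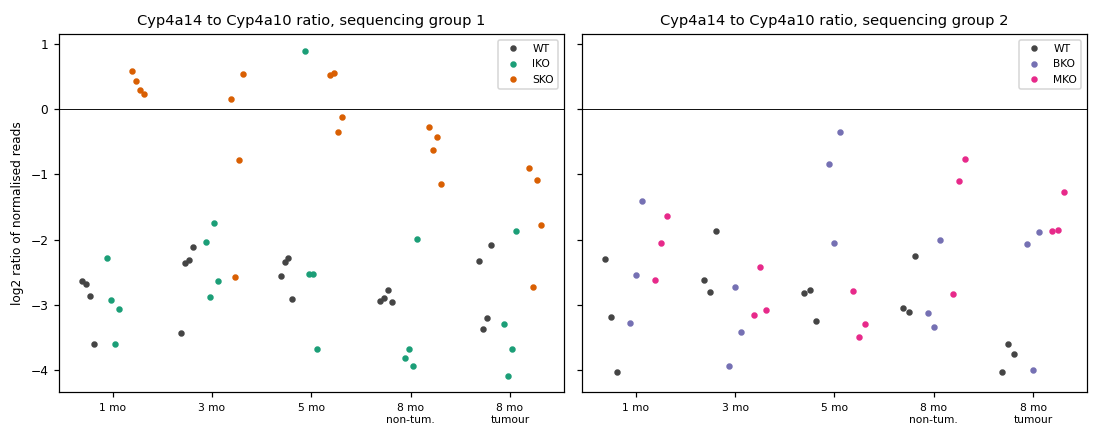
Log2 ratio of Cyp4a14 to Cyp4a10 normalised reads in each library, by stage and genotype, for both sequencing groups. At 1 month the 4 SKO libraries lie between 0.23 and 0.58, and the WT libraries between -3.59 and -2.63.

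Of other genes of the pathway, taken from lists of 84 non-members, 22 were called higher and 10 lower in SKO liver. Over all genes 12% were called higher and 10.9% lower, so the lower count is near the share of all genes. In peroxisomal oxidation 6 of 24 rose and 2 fell, among them Crat, which exchanges acetyl groups with carnitine (1.14, adjusted p = 6.78e-08), and Acox2, the oxidase of bile acid intermediates, which fell by 0.32 (adjusted p = 0.00429). In mitochondrial oxidation 5 of 20 rose and 1 fell, with Acad10 at 0.90 (adjusted p = 4.14e-12) and the thioesterase Acot2 at 0.86 (adjusted p = 4.58e-06). In ω-oxidation 3 of 9 rose and 3 fell: Aldh3a2, the fatty aldehyde dehydrogenase, rose by 1.02 (adjusted p = 5.78e-08) and Cyp4f14 fell by 0.94 (adjusted p = 1.66e-05).

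Among the other PPAR receptors, retinoid X receptors and regulators 1 of 13 rose, Pparg (0.84, adjusted p = 4.25e-06). In the same list 3 fell, including the corepressor Ncor1 by 0.38 (adjusted p = 3.72e-06). Of 13 further targets 6 rose and 1 fell, led by the lipid droplet protein Cidec (1.99, adjusted p = 8.84e-07) and Hsdl2 (0.59, adjusted p = 4.25e-06). Of the 5 ketogenesis genes only the hormone Fgf21 passed, rising by 1.04 (adjusted p = 7.48e-05).

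Markers of other cells moved in SKO as well. All 10 macrophage markers rose and 6 of 9 hepatocyte markers fell. The summed macrophage level ranged from 2333 to 7709 normalised reads over SKO non-tumour libraries and from 1866 to 6854 over WT, and the hepatocyte sum from 242000 to 878700 in SKO and from 385700 to 951700 in WT. Their part in the member results was not tested. In bulk tissue fewer cells of a type and less RNA per cell cannot be told apart. Of 12 clock genes 3 fell in SKO, and of 9 fasting and feeding genes 3 fell, Srebf1 (-0.74), Fasn (-0.85) and Pnpla3 (-0.77), all tied to lipogenesis and named after their values were seen. The hour of collection is not stated in the labels used here, and the part of these genes was not tested.

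The SKO effect on Acadvl, the very-long-chain acyl-CoA dehydrogenase that starts mitochondrial oxidation, depended on age. It was 0.59 at 1 month, 0.18 at 3 months, 0.05 at 5 months and -0.27 in 8-month non-tumour liver (interaction over stages, limma, adjusted p = 0.0113). At 1 month Acadvl was at 4791, 5216, 4509 and 3978 in SKO and 3536, 2511, 3199 and 3030 in WT, and at 8 months in non-tumour liver at 2518, 3188, 2911 and 3289 in SKO and 3760, 3428, 3825 and 3330 in WT. The groups stood apart at both ages, in opposite order. Tested alone, the difference was called at 1 month (limma adjusted p = 0.000675) and not in 8-month non-tumour liver. Acadvl was the single member called for an interaction in SKO, against 5.68% of genes. At an unadjusted limma p below 0.05 there were 6 of 9 members, and 3091 of 12966 genes. Quantile normalization left 0 members called. Testing only the groups compared gave 3, as did leaving out WT replicate 1 at 3 months.

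In BKO non-tumour liver the receptor fell, and so did 2 of its 8 listed targets, Cyp4a10 and Vnn1. Of the 9 members 3 were called against 19.6% of all genes, and all 3 were lower, as were 9.04% of genes. The members' median difference was -0.49 against 0.01. Ppara fell by 0.55 (SE 0.118, adjusted p = 0.000879), Cyp4a10 by 1.64 (SE 0.394, adjusted p = 0.00291) and Vnn1 by 1.27 (SE 0.164, adjusted p = 5.63e-07). Cyp4a14 did not pass over the 4 stages (SE 0.42, adjusted p = 0.0899). At 3 months alone, where 1.54% of genes were called, its difference was -3.11 (adjusted p = 0.0477), a call lost without any 1 of the 6 libraries, with quantile normalization (0.0528) and with limma-voom (0.186). For Acaa1b the value over the stages was -0.49 (adjusted p = 0.229). The 3 mitochondrial members had differences of -0.15 to 0.00, none called.

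Vnn1 by age was called at 3 months (adjusted p = 0.00323, and 0.101 with limma-voom) and 5 months (adjusted p = 0.00214), and not at 1 month (0.0775) or in 8-month non-tumour liver (0.152). At 1 month it was at 30.69, 18.82 and 15.37 in BKO and 36.75, 110.9 and 57.59 in WT. At 3 months it was at 6.354, 8.3 and 3.199 in BKO and 36.15, 66.42 and 69.46 in WT, and at 5 months at 7.252, 9.456 and 20.29 in BKO and 69.1, 81.43 and 101.6 in WT. In 8-month non-tumour liver BKO had 30.54, 70.69 and 40.39 and WT 95.49, 118.3 and 76.64. BKO lay below WT without overlap at all 4 stages, furthest at 3 and 5 months. The lowest of these values rests on 4 reads.

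Ppara at 5 months was at 1155, 1173 and 1144 in BKO and 2254, 2637 and 2082 in WT (difference -0.98, adjusted p = 0.0102, with 6.44% of genes called, and adjusted p = 0.0533 without WT replicate 2). At 8 months the groups overlapped, with 1265, 1806 and 1890 in BKO and 2434, 1739 and 1334 in WT. Cyp4a10 at 3 months was at 306.8, 545.7 and 248.7 in BKO and 2714, 1796 and 3693 in WT, apart from each other. Its difference there, -2.82, had an adjusted p of 0.0608, and of 0.0358 with a replicate block.

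In BKO, where 9.04% of all genes were called lower, 17 of the 84 other pathway genes fell and 0 rose. Peroxisomal genes made up 7 of these, including Eci2, which shifts double bonds (-0.75, adjusted p = 4.24e-05), and Phyh, which opens the breakdown of branched chains (-0.55, adjusted p = 0.000392). Aldh3a2 fell by 1.85 (adjusted p = 6.3e-08) and Rxra, the partner of PPAR alpha, by 0.22 (adjusted p = 0.00544). Acadl fell by 0.33 (adjusted p = 0.00523), the ketone-forming Bdh1 by 0.36 (adjusted p = 0.00405) and Acot1 by 0.60 (adjusted p = 0.029). At the same time 9 of 10 stellate cell markers, 5 of 6 cholangiocyte markers and 5 of 10 macrophage markers rose, and 3 of 9 hepatocyte markers rose. The summed stellate level was 2742 to 4985 normalised reads in BKO and 1797 to 3464 in WT. Of 12 clock genes 3 fell and 1 rose. The part of these in the member results was not tested.

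In IKO non-tumour liver 2 of the 3 mitochondrial members rose in the mean of the 4 stages. Acadvl rose by 0.28 (SE 0.0624, adjusted p = 0.00216) and Cpt1a, the rate-setting carnitine palmitoyltransferase, by 0.35 (SE 0.0842, adjusted p = 0.00493), so that 2 of 9 members were called against 9.04% of all genes, and 3.87% called higher. The members' median difference was 0.11 against 0.00. Cpt2, the third mitochondrial member, had a difference of 0.18 (adjusted p = 0.203). Ppara had a difference of -0.21 (adjusted p = 0.145), Cyp4a10 -0.44 (adjusted p = 0.456) and Cyp4a14 -0.31 (adjusted p = 0.725).

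Cpt1a at 1 month was at 1937, 1932, 2016 and 2019 in IKO and 1250, 1423, 1347 and 1332 in WT, and in 8-month non-tumour liver at 2144, 1731, 1707 and 1778 in IKO and 1378, 1357, 1306 and 1401 in WT. Groups were apart at both ages and overlapped at 3 months, with 2613, 2682, 2077 and 1998 in IKO and 1552, 1851, 2546 and 2757 in WT. Acadvl at 1 month was at 4434, 5194, 4718 and 4439 in IKO and 3536, 2511, 3199 and 3030 in WT, also apart. At 1 month alone, where 1189 of 12966 genes were called, Acadvl rose by 0.62 (adjusted p = 0.00122) and Cpt1a by 0.55 (adjusted p = 0.0282). That Cpt1a call was lost under 7 alternatives. No member was called in IKO at 3 months, 5 months or in 8-month non-tumour liver, where 26, 188 and 26 genes were.

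Of the 84 other pathway genes 7 rose and 3 fell in IKO, where 9.04% of all genes were called and 3.87% called higher. Hadha, of the mitochondrial trifunctional protein, rose by 0.28 (adjusted p = 0.0158). Rxra rose by 0.30 (adjusted p = 0.0138), Creb3l3 by 0.27 (adjusted p = 0.0172) and the thioesterase Acot12 by 0.30 (adjusted p = 0.0157). Txnip, a regulator of redox and glucose uptake, rose by 0.79 (adjusted p = 0.00132), while the fatty acid transporter Cd36 fell by 0.61 (adjusted p = 0.0175) and Cyp4f14 by 0.50 (adjusted p = 0.0434). Among markers 2 of 10 of macrophages and 2 of 4 of T and NK cells rose, and 1 of 9 of hepatocytes fell.

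MKO non-tumour liver had few changes. Ppara fell by 0.46 (SE 0.118, adjusted p = 0.0263) and Ehhadh, the bifunctional enzyme of peroxisomal oxidation, rose by 0.33 (SE 0.0927, adjusted p = 0.0434), 2 of 9 members against 2.71% of all genes. The members' median was 0.02 against 0.01. Ppara at 1 month was at 1449, 1465 and 1248 in MKO and 2765, 2686 and 2491 in WT, apart. Ehhadh then was at 39.14, 54.16 and 58.96 in MKO and 31.5, 22.17 and 20.41 in WT, also apart. Neither gene was called at 1 month alone, where 24 of 12966 genes were. No member was called at any other single non-tumour stage. Over all genes 3 were called at 3 months, 6 at 5 months and 744 in 8-month non-tumour liver. Leaving out single libraries gave counts of 0 to 2 called members, with Ppara lost in 6 and Ehhadh in 16 of 24 such fits. Limma-voom called 1, with Ehhadh at an adjusted p of 0.0584. The filter on low values removed Ehhadh before testing, which left Ppara as the 1 called. Ppara was lost without MKO replicate 3 at 1 month, 1 at 5 months or 2 at 8 months, or WT replicate 3 at 3 months, 2 at 5 months or 1 at 8 months.

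Of the cell markers 2 of 9 of hepatocytes fell and 1 of 10 of macrophages rose. The summed hepatocyte level at 1 month was 525100 to 545400 normalised reads in MKO and 861800 to 1080000 in WT. It was 478700 to 490800 against 671300 to 937900 at 3 months and 477100 to 561700 against 779700 to 810000 at 5 months. The macrophage sum in 8-month non-tumour liver was 6813 to 13390 in MKO and 2682 to 6158 in WT. These sums did not overlap, and their part in the member results was not tested.

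The 1-month MKO livers had Cyp4a values above WT that did not pass the test. Cyp4a14 was at 687.5, 1295 and 1432 in MKO and 192.3, 311 and 68.53 in WT, and Cyp4a10 at 4232, 5380 and 4438 in MKO and 947.7, 2825 and 1125 in WT. At 5 months the order was the reverse, with Cyp4a14 at 130.5, 58.28 and 133.2 in MKO and 396.1, 805.4 and 328.4 in WT. The groups stood apart at both ages, where an exact permutation test of 3 libraries against 3 cannot go below p = 0.1. Cyp4a14 was called at neither age, and its interaction with stage did not pass (limma adjusted p = 0.132). No member was called for an interaction in MKO, where 0.339% of genes were, with 3 members at an unadjusted p below 0.05 and 0 called by limma-voom. Fitting only the groups compared gave 2. Of the 84 other pathway genes 1 passed over the 4 stages, against 2.71% of all genes: Hadh, of the mitochondrial spiral (0.36, adjusted p = 0.0239). In IKO and BKO no member was called for an interaction either, where 0.0694% and 0.663% of genes were. Members with an unadjusted p below 0.05 numbered 1 in IKO and 0 in BKO, and limma-voom called 0 in both.

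**Figure D4:**
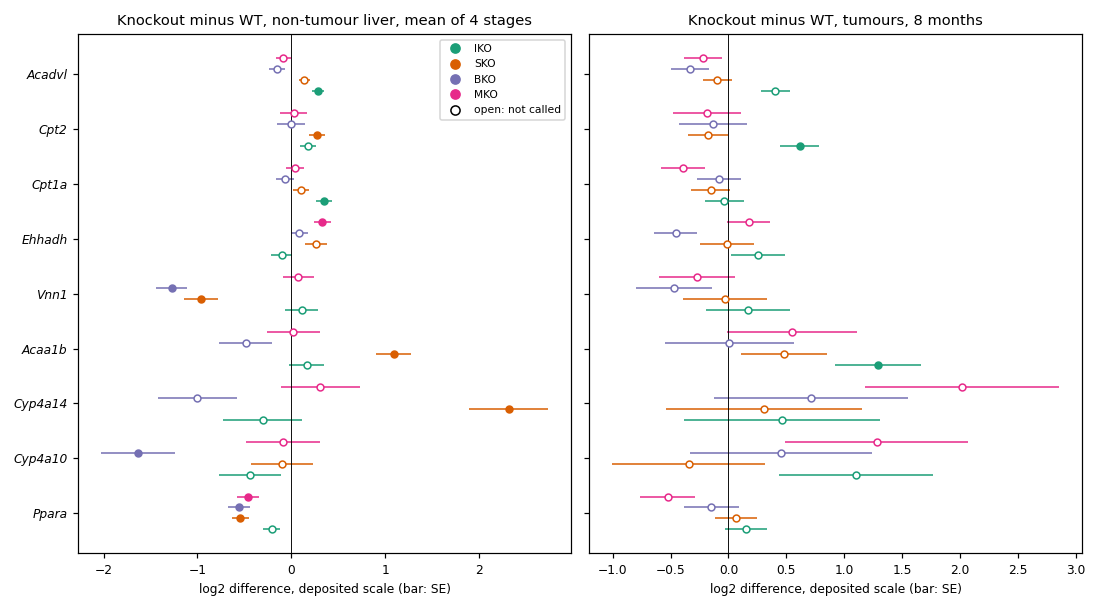
Knockout minus WT on the deposited log2 scale for each member, with 1 SE. The left panel shows the mean of 4 non-tumour stages and the right panel 8-month tumours. Filled points are called, and the largest is Cyp4a14 in SKO at 2.31.

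IKO and SKO were compared with the same WT libraries, and BKO and MKO with the other WT set. For Ppara the differences side by side were -0.21 in IKO, -0.55 in SKO, -0.55 in BKO and -0.46 in MKO. For Vnn1 they were 0.11, -0.96, -1.27 and 0.07 in the same order. Differences between knockouts were not tested.

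In tumours, Cyp4a10 fell below non-tumour liver of the same genotype in all 6 comparisons. Acaa1b and Acadvl each fell in 5 of them and Cpt2 in 4, while Cpt1a rose in 4 and Vnn1 in 3. In WT of sequencing group 1, 7 of 9 members were called against 42.1% of all genes. The 2 higher members compare with 22.9% of genes called higher and the 5 lower with 19.2% called lower. Cyp4a10 fell by 2.64 (SE 0.663, adjusted p = 0.00102), and lower values were also called for Acaa1b at -1.95 (adjusted p = 2.37e-05), Cpt2 at -0.92 (adjusted p = 1.59e-05), Ppara at -0.90 (adjusted p = 5.67e-05) and Acadvl at -0.61 (adjusted p = 7.17e-05). Cpt1a rose by 1.27 (SE 0.168, adjusted p = 1.57e-08) and Vnn1 by 1.40 (SE 0.36, adjusted p = 0.00127). In the second WT set 5 members were called against 27.1%, all lower (12% of genes): Cyp4a10 (-4.07, adjusted p = 0.00018), Cyp4a14 (-3.31, adjusted p = 0.00307), Acaa1b (-2.05, adjusted p = 0.00554), Acadvl (-0.64, adjusted p = 0.0036) and Cpt2 (-0.82, adjusted p = 0.0353). There Cpt2 was lost without non-tumour replicate 1 or 3 or tumour replicate 1 or 3 (adjusted p = 0.059 to 0.175), Acaa1b without tumour replicate 1 (0.0667) and Cyp4a14 with limma-voom (0.0929).

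The 2 carnitine palmitoyltransferases were called in opposite directions in tumours of WT in sequencing group 1 and of SKO. Cpt2 was not called in IKO or BKO, nor Cpt1a in MKO or the second WT set. In WT of sequencing group 1, Cpt1a was at 3457, 3180, 4877 and 2276 in tumours and 1378, 1357, 1306 and 1401 in non-tumour liver. Cpt2 was at 299.1, 248.3, 255.4 and 291.9 in tumours and 649.5, 573.6, 514.5 and 447.8 in non-tumour liver. Neither gene overlapped between the tissues. Vnn1 was at 377.3, 156.2, 163.7 and 206.3 in tumours and 61.75, 79.16, 61.63 and 57.65 in non-tumour liver, without overlap.

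The Cyp4a genes varied widely among tumours. For Cyp4a10, WT tumours of sequencing group 1 had 452.5, 30.03, 42.16 and 651.4 normalised reads, against 1705, 1217, 1578 and 493.4 in non-tumour liver, so 2 tumours lay far below and 1 inside the non-tumour range. Cyp4a14 followed in the same libraries, at 88.97, 2.002, 3.72 and 153.2. In the second WT set tumours had Cyp4a14 at 0.6416, 13.39 and 2.391, the lowest of these being 1 read, and non-tumour liver 195.2, 175.8 and 266.1.

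In SKO tumours 8 of 9 members were called against 39.7%, 2 higher (21% of genes) and 6 lower (18.7%). Cyp4a14 fell by 4.17 (SE 0.847, adjusted p = 6.86e-05), from 2157, 1992, 685.8 and 777.5 to 359.6, 11.03, 23.72 and 15.39. Cyp4a10 fell by 3.71 (adjusted p = 8.89e-06), Acaa1b by 2.16 (adjusted p = 4.53e-06), Cpt2 by 1.03 (adjusted p = 2.37e-06), Ehhadh by 0.97 (adjusted p = 0.000632) and Acadvl by 0.43 (adjusted p = 0.00418, and 0.164 with quantile normalization). Vnn1 rose by 2.35 (adjusted p = 4.77e-07), from the 12.61 to 33.69 of SKO non-tumour liver to 141.4, 261.5, 225.3 and 220.1, and Cpt1a rose by 1.15 (adjusted p = 1.89e-07).

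In IKO 5 members were called against 33.3%, 2 higher (18.2% of genes) and 3 lower (15.1%): Cpt1a (0.82, adjusted p = 0.000141) and Vnn1 (1.28, adjusted p = 0.00426) rose, and Ppara (-0.70, adjusted p = 0.00213), Cyp4a10 (-1.78, adjusted p = 0.0325) and Acaa1b (-0.97, adjusted p = 0.0383) fell. Without IKO tumour replicate 2, the library with Cyp4a10 at 46.19 where the others had 445.3, 499.2 and 1408, the count was 3. Cyp4a10 was also lost without IKO non-tumour replicate 2 or 4 (adjusted p = 0.0846 and 0.117) and with only the groups compared (0.0908), and Acaa1b without non-tumour replicate 1 or 3 or tumour replicate 1 (0.0531 to 0.125) and with quantile normalization (0.117).

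In BKO 4 members were called against 14.7%, 1 higher (8.39% of genes) and 3 lower (6.32%), with Cyp4a10 (-2.94, adjusted p = 0.0099), Ehhadh (-0.84, adjusted p = 0.00202) and Acadvl (-0.65, adjusted p = 0.00651) lower and Cpt1a higher (0.54, adjusted p = 0.049). Same-number libraries of BKO tumour and non-tumour liver correlated (0.226 to 0.329), and the labels do not state that a number marks a mouse. With a replicate block for this pair of groups the limma adjusted p values were 0.00144, 0.00143, 0.00351 and 0.0344. Without BKO non-tumour replicate 3 the count was 1, and without non-tumour replicate 2 or tumour replicate 1 it was 2. Cpt1a was lost with limma-voom (adjusted p = 0.064) and without non-tumour replicate 1 or 3 or any single tumour library (0.0535 to 0.247). In MKO 6 members fell against 17.3% of genes called and 7.56% called lower, led by Cyp4a10 (-2.87, adjusted p = 0.0101) and Cyp4a14 (-2.55, adjusted p = 0.0325). Without MKO non-tumour replicate 3 or tumour replicate 1 the count was 0, without tumour replicate 2 it was 1 and without non-tumour replicate 1 it was 3. MKO tumour replicate 3 stood apart, with Acaa1b at 8621 where the others had 1467 and 935.2, and Cpt2 at 621.4 where they had 218.1 and 243.7. BKO and MKO counts were 0 when only the groups compared entered the fit, which left 6 libraries. Over all genes 12 were then called in BKO and 82 in MKO.

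**Figure D5:**
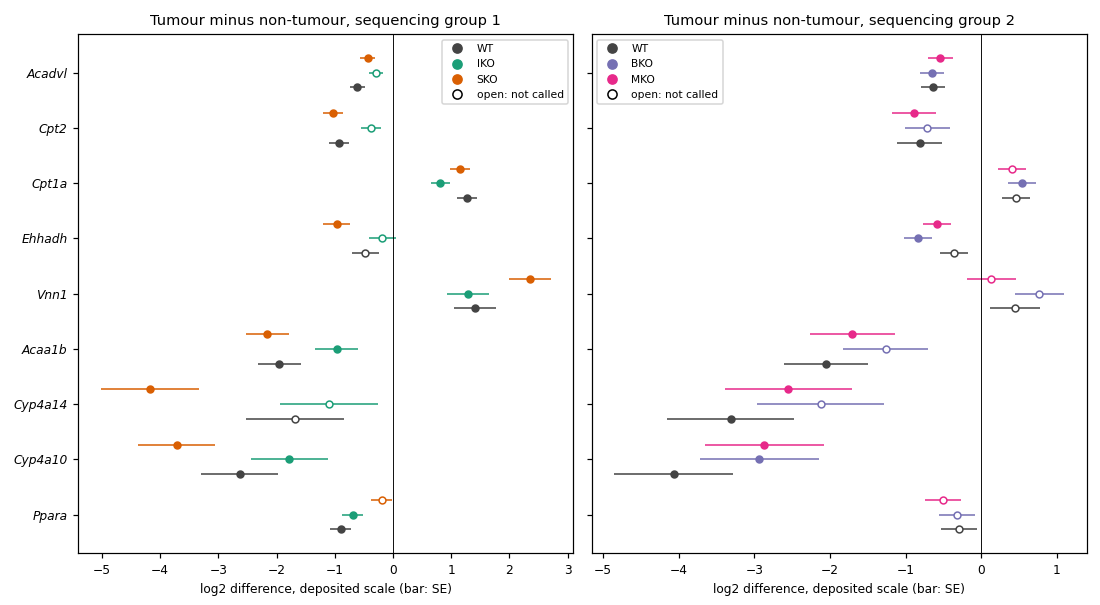
Tumour minus non-tumour liver at 8 months on the deposited log2 scale for each member and genotype, with 1 SE and called points filled. Cpt1a lies right of 0 in all 6 comparisons, from 0.41 to 1.27, and Cyp4a10 left of 0 in all 6, from -4.07 to -1.78.

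Between 29 and 42 of the 84 other pathway genes fell in tumours, depending on the genotype, and 4 to 10 rose. The share of all genes called lower ran from 6.32% to 19.2%. Of 24 peroxisomal genes 14 fell in WT of sequencing group 1 and 17 in the second WT set, including Nudt7, which degrades coenzyme A (-3.06 and -3.35), Hacl1 (-1.39 and -1.88) and Pex11a, a peroxisome division factor (-1.60 and -1.37). Of the 9 ω-oxidation genes 7 and 5 fell. Cyp4a12a fell by 4.75 and 5.29 and Cyp4f14 by 3.72 and 2.80, while Cyp4a31, which shares sequence with Cyp4a10 and was named after its values were seen, rose by 3.09 and 3.88. Other targets followed both ways, with Retsat (-1.91 and -2.12) and Mgll (-1.77 and -1.56) lower. Bdh1 rose (1.14 and 1.04).

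Of 10 stellate markers 6 rose in tumours of WT in sequencing group 1 and 5 in the second set, and of 6 cholangiocyte markers 3 and 2 rose. Hepatocyte markers moved both ways, 3 higher and 2 lower of 9 in the first set and 2 and 2 in the second. The summed hepatocyte level was 1461000 to 1931000 normalised reads in tumours and 385700 to 775600 in non-tumour liver of the first set. The part of cell make-up in these member results was not tested.

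The tumour effect itself was not shown to differ between any knockout and its WT. No member was called in the test of that difference in IKO, SKO, BKO or MKO, where 0.123%, 0.0308%, 0.0308% and 0.131% of genes were, and 1, 2, 0 and 0 members had an unadjusted p below 0.05. The largest of these was Cyp4a14 in SKO, with a tumour effect minus that of WT of -2.49 (SE 1.2, adjusted p = 0.424).

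When tumours of each knockout were compared with WT tumours, members were called in IKO alone. Acaa1b was higher by 1.29 (SE 0.372, adjusted p = 0.0351) and Cpt2 by 0.62 (SE 0.171, adjusted p = 0.0283), 2 of 9 against 3.6% of all genes, and 2.48% called higher. Acaa1b was at 2651, 1380, 3305 and 3345 in IKO and 1634, 644.7, 549.3 and 1801 in WT, with 1 IKO library inside the WT range. Cpt2 was at 416.4, 321.5, 469.3 and 554 in IKO, all above the WT values of 299.1, 248.3, 255.4 and 291.9. Both calls were lost with only the groups compared (adjusted p = 0.223 and 0.143) and on leaving out any 1 of IKO replicates 1, 3 and 4 or WT replicates 2 and 3. With only the groups compared, 35 of 12966 genes were called. Among markers 1 of 4 of erythroid cells rose, and 1 of 6 of cholangiocytes and 1 of 9 of hepatocytes fell. The summed erythroid level was 3908 to 5265 normalised reads in IKO and 2531 to 3460 in WT, and the stellate sum 1848 to 3190 and 2411 to 4779. Their part was not tested. Of the 84 other genes 10 rose and 0 fell in IKO tumours, among them Cyp4a12a (2.78, adjusted p = 0.00454), Cyp4f14 (1.34, adjusted p = 0.0105), Retsat (1.12, adjusted p = 0.00815), Mgll (0.87, adjusted p = 0.00983), Nudt7 (1.46, adjusted p = 0.0195) and Pex11a (0.90, adjusted p = 0.0159).

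SKO, BKO and MKO tumours had 0 members called by limma, where 1.72%, 0.548% and 4.03% of genes were. Without MKO tumour replicate 3 the MKO count was 1. At an unadjusted p below 0.05 there were 0, 1 and 3, and limma-voom called 0 in each. Cyp4a14 in MKO tumours was at 4.575, 49.3 and 456.8 against 0.6416, 13.39 and 2.391 in WT, a difference of 2.02 (SE 0.841, adjusted p = 0.193) with overlapping groups. Among other pathway genes Fabp1, the liver fatty acid binding protein, fell by 1.12 (adjusted p = 0.0109), Acsl1, which activates long chains, by 0.75 (adjusted p = 0.0209) and Hacl1 by 0.96 (adjusted p = 0.0453) in SKO tumours. In MKO tumours Acsl1 fell by 1.11 (adjusted p = 0.0388), Hadhb by 0.61 (adjusted p = 0.0204) and Bdh1 by 0.72 (adjusted p = 0.0184), and Cd36 rose by 1.10 (adjusted p = 0.0195). Macrophage markers were higher in 7 of 10 in MKO tumours and 3 of 10 in SKO tumours, and their part was not tested. None of the 84 passed in BKO tumours.

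In WT liver of sequencing group 1 the members also moved with age. Over the 4 non-tumour stages 6 of 9 passed, against 27.9% of all genes, and without WT replicate 4 at 1 month 3 did. From 1 to 5 months, where 15.7% of genes were called, Acaa1b rose by 1.42 (adjusted p = 0.00624), Vnn1 by 1.17 (adjusted p = 0.0206), Ehhadh by 0.84 (adjusted p = 0.0094), Cpt1a by 0.71 (adjusted p = 0.00238) and Acadvl by 0.36 (adjusted p = 0.0401), while Ppara fell by 0.52 (adjusted p = 0.0401). Quantile normalization moved the Acadvl value to 0.10 (adjusted p = 0.645), and 7 other alternatives lost that call. Ppara and Vnn1 were each lost under 5, with only the groups compared (adjusted p = 0.0564 and 0.0516) and without single libraries. Those were WT replicate 2 at 1 month (-0.36, adjusted p = 0.233) and replicates 1, 2 and 3 at 5 months for Ppara, and replicates 2 and 4 at 1 month and 1 and 4 at 5 months for Vnn1. For Acadvl they were replicates 2 and 4 at 1 month and 1, 2 and 3 at 5 months. Ppara was at 702.7, 732.8, 681.1 and 837.2 at 5 months and, in 8-month non-tumour liver, at 2506, 1696, 1628 and 1252, above 5 months without overlap. In the second WT set 0 of 9 passed for age by limma, where 0.887% of genes did, with 0 at an unadjusted p below 0.05 and 0 by limma-voom.

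Levels of the members over all libraries, lowest, median and highest, were 439, 1144 and 2765 normalised reads for Ppara, 10.46, 1308 and 5494 for Cyp4a10, and 0.6416, 230.5 and 5495 for Cyp4a14. They were 549.3, 5175 and 15180 for Acaa1b, 3.199, 69.46 and 377.3 for Vnn1, and 3.487, 49.6 and 217.7 for Ehhadh. For Cpt1a they were 728.2, 1518 and 4877, for Cpt2 182.7, 507.6 and 1069, and for Acadvl 1224, 2897 and 5216. The Cyp4a genes spanned the widest range and Acadvl the narrowest.

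Across libraries, after each group's mean was removed, Cyp4a10 and Cyp4a14 varied together. Pearson's r was 0.835 over 60 libraries and 0.846 over 45 (permutation p = 1e-05 for both, the smallest that the shuffles can give, adjusted over 18 relations 9e-05), and Spearman's rho was 0.88 and 0.809 (adjusted p = 0.00018 for both). Without the 2 libraries farthest out on the first gene, r was 0.813 and 0.791. Ppara varied with its targets less evenly. In sequencing group 2 it went with Acadvl (r = 0.554, rho = 0.602, adjusted permutation p = 0.00684 and 0.00456), Cpt2 (r = 0.528, rho = 0.553, adjusted p = 0.00828 and 0.00603) and Acaa1b (r = 0.521, rho = 0.544, adjusted p = 0.0127 and 0.0119), and r stayed at 0.592, 0.578 and 0.49 without the 2 farthest libraries. In sequencing group 1 the same 3 relations had r of -0.02, 0.05 and 0.09, none passing. Ppara with Cpt1a passed there by rho (0.402, adjusted permutation p = 0.0155) and not by r (0.348, adjusted p = 0.0794). Ppara with Cyp4a10 in sequencing group 2 passed by r (0.477, adjusted permutation p = 0.0406) and not by rho (0.39, adjusted p = 0.0795). Whether the sequencing groups differ in this was not tested.

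Over the 15 group means of each sequencing group, the gene whose pattern was most like a member's was taken as the one with the highest value of the lower of its 2 Pearson correlations. Cyp4a14 was most like Acot3 (r = 0.938 and 0.908) and Acot1 (0.895 and 0.881), which are peroxisomal and cytosolic acyl-CoA thioesterases, and Acadvl most like Glyat (0.962 and 0.951). Acaa1b was most like Cyp7a1 (0.922 and 0.926), which opens the classic route from cholesterol to bile acids, Cyp4a10 like Gas1 (0.947 and 0.927) and Ppara like Ganc (0.908 and 0.927). Vnn1 was most like Slc16a11 (0.884 and 0.865), Ehhadh like Aldh4a1 (0.881 and 0.884), Cpt1a like the desaturase Fads2 (0.866 and 0.846) and Cpt2 like Isoc2a (0.878 and 0.933). Group means share libraries and the tumour contrast, so these values are descriptions.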

How the data were processed

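Liver RNA was, per the labels' protocols, prepared using MAPS, which the labels do not explain, and sequenced on an Illumina HiSeq2000. Per the submitters' processing notes, STAR 2.7.10a, HTSeq 2.0.2 and DESeq2 1.32.0 were used with GRCm38 (mm10), without their settings. The deposited table holds log2 values for 12966 genes in 105 libraries, which from their spacing are a variance-stabilising transform. Their common floor, 3.8289, corresponds to 0 reads. The inverse of the transform returned whole numbers, within 0.05, for 100.0% of values below 1000 reads. No column was left without a sample, and 4 symbols listed more than once were kept apart. No library was a copy of another (lowest chi-square per gene 5.514 over 5460 pairs). Reads carry no molecular identifiers, so depth bounds counting error only.

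The 9 members, the pathway, clock, feeding and marker lists, and the comparisons were chosen with earlier results of these data known. The sequencing groups were fitted separately with limma 3.58.1 in R 4.3.3 on the deposited values, with 1 mean per group and empirical Bayes moderation with a trend. P-values were adjusted by Benjamini-Hochberg per comparison over all genes. Named genes were all members, the 2 called genes with the smallest p per pathway list and knockout comparison, and the 3 most alike genes per member, of which the first is printed, with the second for Cyp4a14. One gene that this rule names is not reported here. Relations used 100000 permutations (scipy 1.17.1, Python 3.11.15). The fit was tested on simulated data. The limma p-values rest on 1 spread per gene, pooled over the libraries within all 15 groups of a sequencing group, tumours included.

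Replicate numbers were checked in 32 pairs of groups. Every same-number correlation was over 0.1 in BKO tumour and non-tumour liver (0.226 to 0.329) and at 8 months in non-tumour liver of MKO and WT (0.124 to 0.303), and not in the other 30. MKO and WT livers come from different mice, so such a correlation does not show that libraries share a mouse. Alternatives were a filter at a mean of 6, quantile normalization, no trend, a replicate block, limma-voom on recovered reads, only the groups compared, and leaving out each library.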

Additional observations from a re-analysis of the deposited data

Results flagged for a closer look

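In groups of 4, a library far from the other 3 was found in 6 of 135 combinations of member and group, where chance gives about 1 in 20, or 6.75. Ppara in WT replicate 2 at 1 month was at 1514 normalised reads, above the 939.2 to 964.5 of the others. In SKO tumours replicate 1 had Cyp4a10 at 674.7, where the others had 51.39 to 78.75, and Cyp4a14 at 359.6, where they had 11.03 to 23.72. In the same group replicate 4 had Acaa1b at 638.7, below the others at 1854 to 1875. IKO replicate 1 at 3 months was low for Acaa1b, at 3238 against 4984 to 5304, and for Vnn1, at 62.33 against 145.5 to 161.9. The SKO effect on Acadvl differed between stages (limma interaction, adjusted p = 0.01133).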

How the results depend on the processing

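Of 20 counts of called members, most stayed within 1.5 times. With only the groups compared, the count was 0 for IKO against WT tumours and for BKO and MKO tumour against non-tumour liver, 3 for the SKO and 2 for the MKO interaction with stage. In that setting the calls over all genes went from 467 to 35, 1907 to 12 and 2245 to 82 in the first 3 of these comparisons. For MKO against WT tumours they went from 523 to 0. The SKO interaction count was 0 with quantile normalization. The count for MKO non-tumour liver was 1 with the filter, which removed Ehhadh before testing, and 1 with limma-voom. Apart from fewer libraries in the first of these settings and fewer genes in the filter, the cause was not tested.

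Leaving out 1 library at a time, the counts ran from 0 to 3 for IKO against WT tumours, 3 to 6 for IKO and 1 to 6 for BKO tumour against non-tumour liver, 0 to 6 for the same comparison in MKO and 0 to 2 for MKO non-tumour liver. They ran from 0 to 1 for MKO against WT tumours, 1 to 3 for the SKO interaction and 3 to 7 for WT age in sequencing group 1. The lowest BKO tumour count came without non-tumour replicate 3 (1), and it was 2 without non-tumour replicate 2 or tumour replicate 1. The MKO tumour count was 0 without non-tumour replicate 3 or tumour replicate 1, 1 without tumour replicate 2 and 3 without non-tumour replicate 1. The 1 called member in MKO against WT tumours appeared without MKO replicate 3.

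Of 74 called member values, 39 passed under every alternative and 35 were lost under at least 1, and none changed sign. Another 27 passed under some alternative only. Values by alternative were kept for the 128 member results with an unadjusted p below 0.05, a limit set after it was seen that values near 0 change sign. Of the other 232 results, 98 changed sign under some alternative, 15 of them other than by leaving out a library, and 4 passed. With a replicate block Ppara in IKO at 1 month passed (adjusted p = 0.0479, from 0.0598), Cyp4a10 in BKO at 3 months passed (0.0358) and Cpt1a in BKO tumours was at 0.05, with no other call changed. The replicate block for single pairs of groups was chosen after the data were seen, and in MKO 8-month non-tumour liver it changed no call.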
